A study of Mus musculus with 18 samples.

Results

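Hepatic fatty acid synthesis was described through 10 genes: *Fasn*, *Acaca*, *Acacb*, *Acly*, *Scd1*, *Elovl6* and *Me1*, which encode enzymes, and *Srebf1*, *Mlxipl* and *Thrsp*, which encode regulators. They were taken by gene symbol from an expression table of 37303 genes, in which each of the 10 symbols occurred once. The measure was FPKM, a read number scaled to transcript length and to library size, so levels of different genes may be set side by side. After asparaginase (ASNase), none of these genes had an interval separate from that under PBS in WT liver. *Fasn* and *Acly* lay at 0.509 and 0.630 of their PBS values, and the others between 0.792 (*Srebf1*) and 1.23 (*Acaca*). Intervals this wide cannot show that a level stayed the same. All 10 had lower values after ASNase in *Gcn2*-/- liver and 9 of 10 in *Atf4*-/- liver, where 48.5 and 46.2% of all genes compared were lower. The error of single values was wide. Across the 3 strains only 1 of these differences, that of *Me1* in *Gcn2*-/- liver, met the full rule for a call. Of all genes compared, 0.881% were called in WT, 3.69% in *Gcn2*-/- and 7.37% in *Atf4*-/- liver.

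As background, the liver turns surplus carbohydrate into fat. Citrate leaves the mitochondrion and is cleaved to acetyl-CoA by ATP citrate lyase (*Acly*), acetyl-CoA is carboxylated to malonyl-CoA (*Acaca*, *Acacb*), and fatty acid synthase (*Fasn*) builds palmitate from malonyl-CoA with NADPH, part of which malic enzyme (*Me1*) supplies. Palmitate is then lengthened (*Elovl6*) and desaturated (*Scd1*). Insulin acts on these genes largely through SREBP-1c, a product of *Srebf1*, glucose acts through ChREBP, the product of *Mlxipl*, and *Thrsp* encodes Spot 14, a small protein that accompanies lipogenic enzymes.

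The libraries came from the livers of 18 mice on the C57BL/6J background, 3 per group, in 6 groups: WT mice, mice lacking both copies of *Gcn2* (*Gcn2*-/-) and mice lacking both copies of *Atf4* (*Atf4*-/-), each given PBS or ASNase. ASNase, an enzyme drug that depletes blood asparagine and to a lesser extent glutamine, was injected intraperitoneally at 3 IU per gram body weight on 8 days, and PBS was injected in the same way at the same volume. The labels give an age of 8 to 16 wk and collection 7.5 h after the last injection, and chow was available throughout. GCN2 is the eIF2 kinase that senses amino acid shortage, and ATF4 is the transcription factor whose translation then increases. The deletions were not limited to the liver, so effects within hepatocytes and effects from other organs cannot be told apart, and a single set of WT mice served as the reference for both deletions. Males made up 1 of 3 mice in the WT PBS group and both *Gcn2*-/- groups, and 2 of 3 in the WT ASNase group and both *Atf4*-/- groups, so that sex and group cannot be told apart where these differ.

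The deposited table gives 1 FPKM value per gene and group, estimated by Cuffdiff from the 3 libraries of the group together, with a lower and an upper bound. Values therefore carry no SD and no n, and a difference could be given neither a p-value nor a check over replicates. The interval between the bounds is the error used here. Read numbers per gene are not part of these values, so depth entered only through the intervals. Among all genes over 3 FPKM the median distance from a value to its upper bound was 51.3 to 54.2% of the value in the 6 groups. The deleted genes were checked first. Under PBS and ASNase in turn, *Eif2ak4*, which encodes GCN2, was at 3.04 and 2.39 FPKM in WT and at 2.31 and 2.96 in *Gcn2*-/- liver, and *Atf4* was at 50.4 and 63.1 in WT and at 32.3 and 29.3 in *Atf4*-/- liver. A gene-level value gathers reads from all exons, and *Eif2ak4* was lower in *Gcn2*-/- than in WT liver under PBS and higher after ASNase. The paper reports from read density plots that a *Gcn2* exon was missing in *Gcn2*-/- mice and *Atf4* in *Atf4*-/- mice. It also measured *Atf4* by RT-qPCR. Of 8 hepatocyte markers, 7 were above 1 FPKM in every group except *Atf4*-/- PBS, where *Serpina1a* had no valid estimate, and *Alb* was listed at 0 without a valid estimate in all groups. In whole liver, fewer cells of a type and less RNA per cell cannot be told apart.

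The levels are given first, by role in the pathway, with genes placed on GRCm38 (mm10). Of the enzymes that feed the pathway, *Acly* (chr11:100476353-100528000, minus strand) stood under PBS at 75.1 FPKM (interval 29.4 to 121) in WT, 62.5 (19.9 to 105) in *Gcn2*-/- and 51.9 (16.1 to 87.8) in *Atf4*-/- liver. After ASNase it stood at 47.3 (16.7 to 78.0) in WT, 40.4 (9.81 to 71.1) in *Gcn2*-/- and 21.0 (7.78 to 34.3) in *Atf4*-/- liver. The value was lower with ASNase than with PBS in each strain, yet all 15 pairs of groups had overlapping intervals.

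*Me1* (chr9:86581371-86695953, minus strand) was at 103 FPKM (55.1 to 151) in WT PBS, 54.7 (29.1 to 80.3) in *Gcn2*-/- PBS and 36.2 (20.3 to 52.2) in *Atf4*-/- PBS. With ASNase it was at 88.9 (45.5 to 132) in WT, 17.1 (9.65 to 24.6) in *Gcn2*-/- and 33.4 (17.8 to 49.0) in *Atf4*-/- liver. The order ran from the WT groups down to *Gcn2*-/- ASNase, and 5 of 15 pairs of groups had separate intervals. WT PBS lay above both *Atf4*-/- groups and *Gcn2*-/- ASNase, and the latter also lay below WT ASNase and *Gcn2*-/- PBS. Its distances from value to upper bound were among the shortest of the members, at 43.7 to 48.8% of the value.

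The 2 acetyl-CoA carboxylases had low levels. *Acaca* encodes the cytosolic form that makes malonyl-CoA for synthesis (chr11:84129672-84401651, plus strand) and lay between 10.6 FPKM (0 to 38.9) in *Gcn2*-/- ASNase and 27.6 (0 to 122) in *Atf4*-/- ASNase. The other groups were at 21.7 (0 to 92.5) in WT PBS, 26.6 (0 to 114) in WT ASNase, 20.8 (0 to 93.6) in *Gcn2*-/- PBS and 18.1 (0 to 74.9) in *Atf4*-/- PBS. Its lower bound was 0 in all 6 groups, and the distance to the upper bound was 267 to 351% of the value, so no order of its groups can be read. *Acacb*, which encodes the mitochondrial outer membrane form whose malonyl-CoA restrains fatty acid oxidation (chr5:114146535-114250761, plus strand), was at 16.3 FPKM (4.53 to 28.2) in WT PBS, 9.79 (3.25 to 16.3) in *Gcn2*-/- PBS and 7.35 (2.93 to 11.8) in *Atf4*-/- PBS. The ASNase values were 13.6 (5.75 to 21.5) in WT, 6.49 (1.74 to 11.2) in *Gcn2*-/- and 2.80 (0.809 to 4.79) in *Atf4*-/- liver. Only WT ASNase and *Atf4*-/- ASNase had separate intervals for this gene.

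*Fasn* (chr11:120805846-120824547, minus strand) was highest in WT PBS at 199 FPKM (0 to 435), followed by 135 (0 to 272) in *Gcn2*-/- PBS and 87.2 (0 to 175) in *Atf4*-/- PBS. With ASNase the values were 101 (3.56 to 199) in WT, 70.9 (0 to 150.4) in *Gcn2*-/- and 29.6 (2.55 to 56.6) in *Atf4*-/- liver. The highest value was 6.73 times the lowest, but 4 of 6 lower bounds were 0 and no pair of groups was separate.

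Of the enzymes that modify palmitate, *Scd1* was the most abundant member (chr19:44394455-44407879, minus strand). Its level was 2172 FPKM (0 to 4603) in WT PBS, 2253 (0 to 5352) in WT ASNase and 2394 (0 to 5696) in *Gcn2*-/- PBS. It was 477 (67.3 to 886) in *Gcn2*-/- ASNase, 470.3 (99.0 to 842) in *Atf4*-/- PBS and 182 (73.0 to 291) in *Atf4*-/- ASNase. The values formed a high set of 3 groups and a low set of 3, with the *Atf4*-/- liver low already under PBS. Because the lower bound was 0 in every high group, no pair of groups was separate even though the extremes differed 13.2-fold. The related desaturase *Scd2* was at 1.32 to 3.15 FPKM in the 6 groups.

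*Elovl6* (chr3:129532355-129638495, plus strand) had narrower intervals. It was at 23.9 FPKM (13.7 to 34.1) in WT PBS, 14.4 (8.39 to 20.4) in *Gcn2*-/- PBS and 11.8 (6.79 to 16.8) in *Atf4*-/- PBS. With ASNase it was at 24.9 (13.8 to 35.9), 8.48 (4.88 to 12.1) and 5.78 (3.27 to 8.29) in the same order of strains. Both WT groups lay above both ASNase-treated knockout groups with separate intervals, and *Gcn2*-/- PBS lay above *Atf4*-/- ASNase.

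Among the regulators, *Srebf1* (chr11:60199089-60222581, minus strand) was at 122 FPKM (12.0 to 232) in WT PBS, 107 (21.2 to 192) in *Gcn2*-/- PBS and 119.8 (18.4 to 221) in *Atf4*-/- PBS. After ASNase it was at 96.6 (21.0 to 172), 65.1 (0.985 to 129) and 34.0 (7.76 to 60.2). The 3 PBS values were close together and *Atf4*-/- ASNase was the lowest, with all pairs overlapping. The locus listed for *Srebf1* spans 117569 bases and is shared by the rows of *Rai1* and 4930412M03Rik, whereas the annotated gene spans 23493 bases. The *Srebf1* and *Rai1* exons share 109 bases on opposite strands and the kit does not mark strand, so the value of *Srebf1* is uncertain, and its SREBP-1a and SREBP-1c isoforms are not told apart at gene level.

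*Mlxipl* (chr5:135089890-135138382, plus strand) was at 86.7 FPKM (27.0 to 146), 93.5 (28.7 to 158) and 128 (32.9 to 223) in WT, *Gcn2*-/- and *Atf4*-/- liver under PBS. After ASNase it was at 99.99 (28.2 to 172), 36.7 (12.6 to 60.7) and 93.6 (15.03 to 172). *Gcn2*-/- ASNase was the single low group, and its interval still overlapped all others. The locus listed for *Mlxipl* begins at 135106891 and spans 31492 bases, whereas the annotated gene spans 48493 bases. The locus listed for *Me1* spans 118472 bases beside 114583 annotated. *Mlxipl* shares 235 exon bases with the antisense gene Gm43500, whose reads cannot be told from its own. The same limit holds over fewer bases for *Elovl6*, which shares 34 with Gm35986, and *Me1*, which shares 30 with A330041J22Rik.

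*Thrsp* (chr7:97412938-97417730, minus strand) was at 324 FPKM (163 to 484) in WT PBS, 157 (88.6 to 225) in *Gcn2*-/- PBS and 285 (129.7 to 441) in *Atf4*-/- PBS. The ASNase values were 284 (140.4 to 427), 58.8 (32.4 to 85.2) and 99.7 (55.0 to 144). *Gcn2*-/- ASNase was separate from all groups but *Atf4*-/- ASNase, and the latter was separate from WT PBS. *Elovl6*, *Me1* and *Thrsp* each had 5 separate pairs, *Acacb* had 1 and the other 6 members had 0, which makes 16 of 150 pairs. Over the 9815 genes with a valid value in all 6 groups and more than 3 FPKM in at least 1 of them, 3.98% of pairs were separate, and 14.7% of these genes had a separate pair. In the order of levels, neighbouring groups overlapped in 50 of 50 cases.

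**Figure D1:**
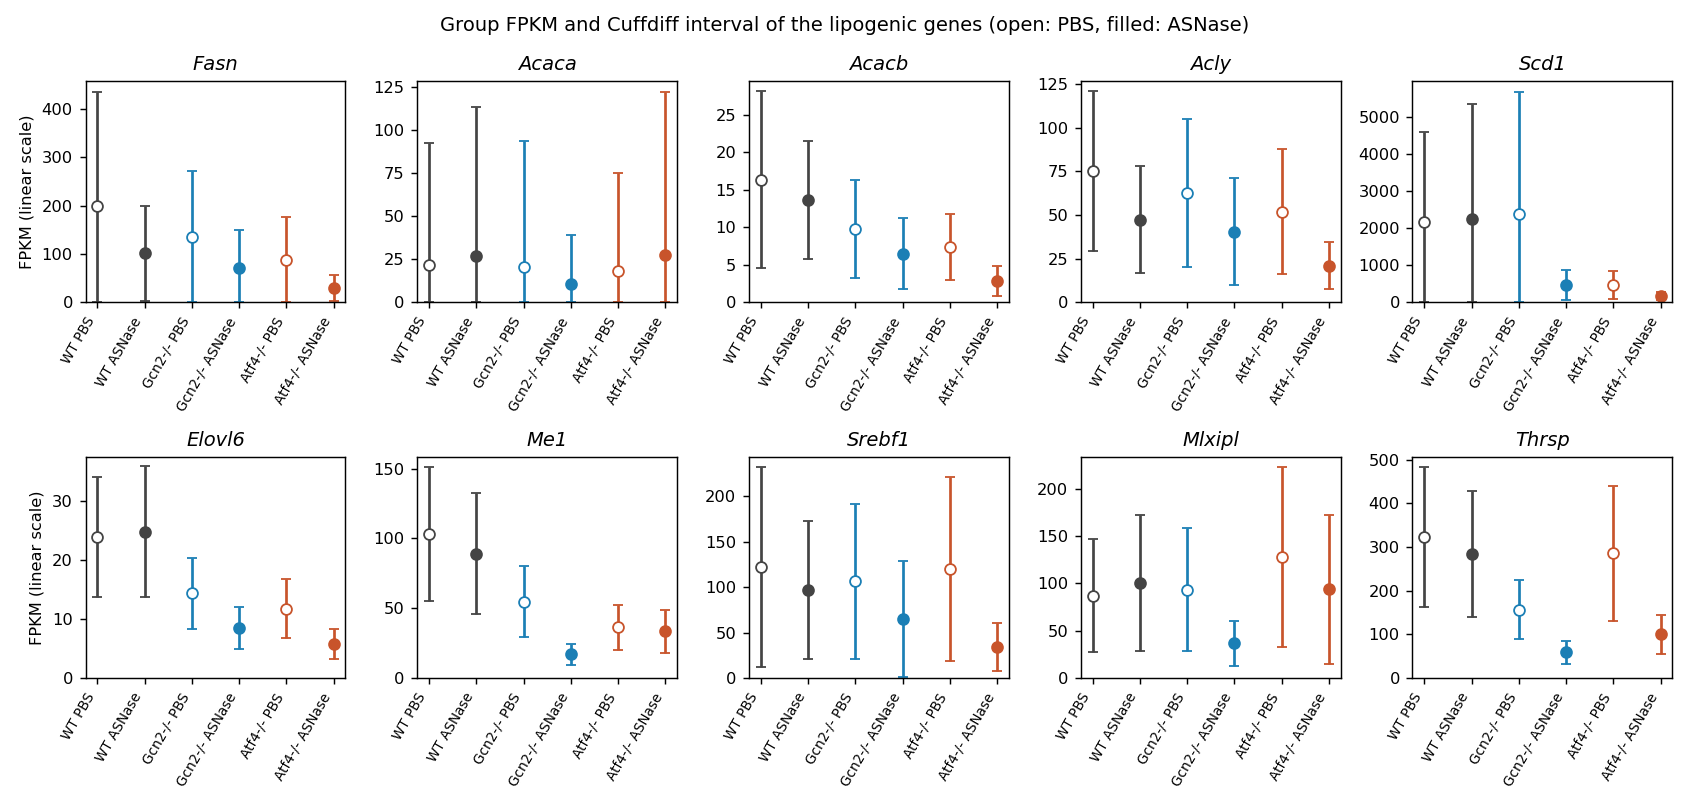
FPKM (linear axis from 0) of the 10 genes in the 6 groups, with bars from the lower to the upper Cuffdiff bound, open points for PBS and filled points for ASNase. *Scd1* splits into 3 groups near or above 2172 FPKM and 3 at or below 477, *Me1* is lowest in *Gcn2*-/- ASNase at 17.1, and the bars of *Acaca* reach 0 in all groups.

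Since these genes are textbook targets of shared factors, the stretch before their transcription start was searched for the letters of known elements. RefSeq promoters (GRCm38.p6, 250 bases before to 50 after each start) were matched for 9 of the 10 genes, with 13 promoters in all, and both strands were read. CCAAT, the NF-Y box, occurred in 8 of 13 promoters and 7 of 9 genes, against 37.4% of all 32851 promoters. GGGCGG, the Sp1 box, occurred in 5 promoters of 4 genes, against 35.7%. The sterol regulatory element TCACNCCAC and the E-box CACGTG each occurred in 1 promoter, both of *Mlxipl*, against 1.24% and 7.15%, and TGATGNAAT, the ATF4-C/EBP element, occurred in 0 of 13, against 0.965%. The stretches before the start are shown for *Fasn* and *Acly*, whose levels were the most alike of the members, and for the *Mlxipl* promoter that holds the sterol element, with matches in capitals.
Fasn, chr11:120824548-120824697, minus strand: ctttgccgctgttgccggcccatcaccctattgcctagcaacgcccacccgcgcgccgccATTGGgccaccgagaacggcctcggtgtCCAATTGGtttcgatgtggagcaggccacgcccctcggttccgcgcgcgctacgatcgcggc
Acly, chr11:100528001-100528150, minus strand: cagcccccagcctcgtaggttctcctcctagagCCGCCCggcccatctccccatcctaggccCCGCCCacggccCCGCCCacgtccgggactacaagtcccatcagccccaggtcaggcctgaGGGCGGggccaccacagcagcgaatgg
Mlxipl, chr5:135106741-135106890, plus strand: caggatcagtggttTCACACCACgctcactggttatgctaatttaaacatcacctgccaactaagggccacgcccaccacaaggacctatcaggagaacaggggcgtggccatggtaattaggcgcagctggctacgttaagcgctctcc
The capitals in *Fasn* are NF-Y boxes at -90, -62 and -59 from the start, the first and last on the other strand and the last 2 overlapping. Those in *Acly* are Sp1 boxes at -117, -88, -76 and -27, the first 3 of them on the other strand, and those in *Mlxipl* are the sterol element at -136. A match is a run of letters only, and binding was not measured in these samples.

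The first question was what ASNase did within each strain. Differences are of log2(FPKM + 0.1), ASNase minus PBS, and the added 0.1 shrinks the fold of weakly expressed genes. Eligible genes had valid values above 0 in both groups and over 3 FPKM in either. A call further needed a log2 difference over 1.5 in size (2.83-fold) and intervals without overlap. All 10 members were eligible in all 9 comparisons made. In WT liver, 0 of 10 members were called, against 0.881% of 9084 eligible genes. 6 members had lower and 4 higher values, where 51.0% of eligible genes were lower, with a median difference of -0.20 beside -0.01 over all eligible genes. *Fasn* (-0.97) and *Acly* (-0.67) had the largest differences, and the others lay between -0.34 (*Srebf1*) and 0.29 (*Acaca*).

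In *Gcn2*-/- liver, *Me1* fell from 54.7 to 17.1 FPKM, a difference of -1.67 on the log2 scale, or 3.19-fold. It was the 1 member called, against 3.69% of 9218 eligible genes (2.13% called lower). *Thrsp* also had separate intervals, with a difference of -1.41 that was short of the limit, where 4.24% of eligible genes had separate intervals. *Scd1* had the largest difference (-2.33, 5.02-fold), inside overlapping intervals. The others were *Mlxipl* (-1.35), *Acaca* (-0.96), *Fasn* (-0.93), *Elovl6* (-0.76), *Srebf1* (-0.71), *Acly* (-0.63) and *Acacb* (-0.59). All 10 values were lower, against 48.5% of eligible genes, and the median was -0.94 beside 0.02. The hepatocyte markers were lower in the same comparison, 5 of the 7 eligible ones with a list median of -1.18 and 0 called, and their summed FPKM was 12459 after ASNase beside 25891 under PBS. Their part in the result was not tested. The call of *Me1* was lost when each group was scaled to a common sum without its 10 highest genes.

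In *Atf4*-/- liver, 0 of 10 members were called, against 7.37% of 9485 eligible genes, since each pair of intervals overlapped. The differences of *Srebf1* (-1.82), *Fasn* (-1.56) and *Thrsp* (-1.52) were past the fold limit, as were 7.0% of eligible genes in this direction. *Scd1* (-1.37), *Acacb* (-1.36), *Acly* (-1.30) and *Elovl6* (-1.01) were next, *Mlxipl* was at -0.45 and *Me1* at -0.12, and *Acaca* was higher by 0.61. Thus 9 of 10 values were lower, against 46.2% of eligible genes, with a median of -1.33 beside 0.08. Of 6 eligible hepatocyte markers, 5 were lower, with a list median of -0.58 and 0 called, and their part in the result was not tested. The sterol regulator and *Fasn* had larger differences here than in *Gcn2*-/- liver and *Me1* and *Scd1* had smaller ones, and except for *Me1* these contrasts lay inside the error.

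**Figure D2:**
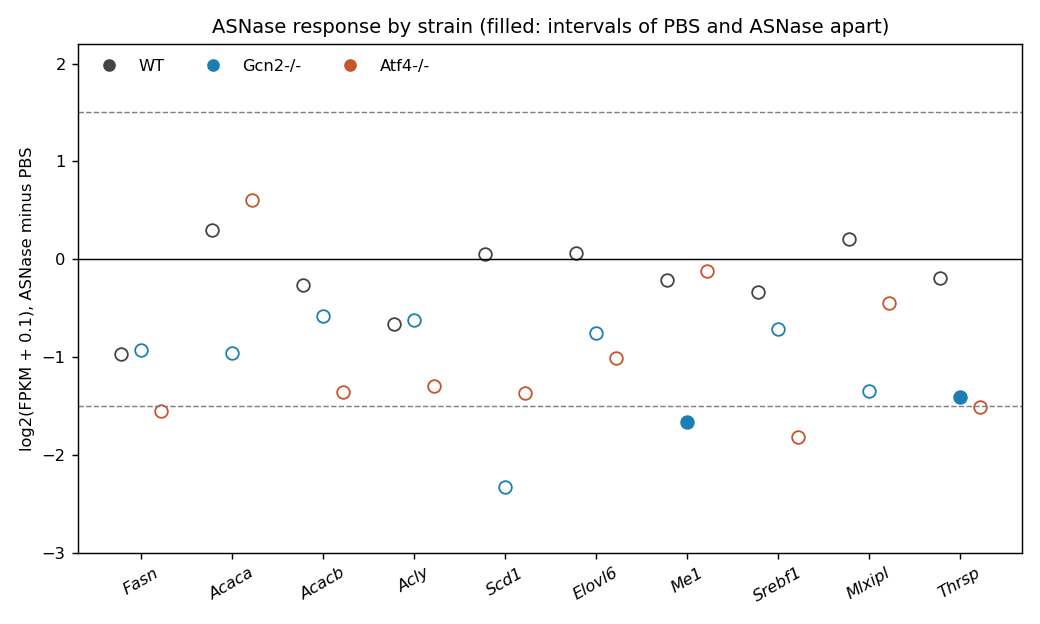
Difference of log2(FPKM + 0.1), ASNase minus PBS, for each gene in WT, *Gcn2*-/- and *Atf4*-/- liver, where filled points have separate intervals and dashed lines mark 1.5 in either direction. WT points lie between -0.97 and 0.29, *Me1* and *Thrsp* in *Gcn2*-/- liver are the filled points, and *Scd1* in *Gcn2*-/- liver is the lowest at -2.33.

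Whether the response differed between strains was read from the difference of these log2 differences, set against the combined error of the 4 values. Each error was the distance from the value to its upper bound as a share of the value, converted to the log2 scale to first order, and the combined error is the root of their summed squares. *Me1* passed in both comparisons with *Gcn2*-/- liver. Its response was lower in *Gcn2*-/- than in WT liver by -1.45 with a combined error of 1.34, where 5.54% of 8650 genes passed, and it differed by 1.55 between *Atf4*-/- and *Gcn2*-/- liver with an error of 1.30, where 5.14% of 8911 genes passed. Between *Atf4*-/- and WT liver its responses differed by 0.10 with an error of 1.34, and 0 of 10 members passed, where 9.08% of 8770 genes did. The number of members that passed depended on how the error was taken. With the shorter log2 distance to the upper bound, *Me1* passed again in both comparisons, and it was the 1 member to pass between the knockouts, where 8.19% of genes did. Against WT, *Thrsp* (-1.22 with an error of 1.11), *Scd1* (-2.38 and 2.26) and *Mlxipl* (-1.55 and 1.51) then passed in *Gcn2*-/- liver, where 8.89% of genes did, and *Thrsp* (-1.33 and 1.17) and *Elovl6* (-1.07 and 1.03) in *Atf4*-/- liver, where 14.0% of genes did. With the mean of the log2 distances to both bounds, only *Me1* passed among the members, where 4.34% of genes passed for *Gcn2*-/- against WT liver, 7.06% for *Atf4*-/- against WT and 3.78% between the knockouts. Its error against WT in *Gcn2*-/- liver then equalled the difference to 2 decimals.

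The second question was what each deletion did without ASNase. Both comparisons use the WT PBS group. Between *Gcn2*-/- PBS and WT PBS, 0 of 10 members were called, against 1.04% of 8920 eligible genes. 8 were lower and 2 higher, where 39.9% of genes were lower, with a median of -0.41 beside 0.06, and the largest differences were those of *Thrsp* (-1.05), *Me1* (-0.92), *Acacb* (-0.73) and *Elovl6* (-0.72). Between *Atf4*-/- PBS and WT PBS, *Me1* was called, from 103 to 36.2 FPKM (-1.51, or 2.85-fold), against 1.12% of 9039 genes. This value lies just past the limit, and the call was lost with a pseudocount of 1 and with the common sum. *Scd1* had the larger difference (-2.21, 4.62-fold) with overlapping intervals, and *Fasn* (-1.19), *Acacb* (-1.14) and *Elovl6* (-1.01) followed. *Thrsp* (-0.18) and *Srebf1* (-0.03) had small differences and *Mlxipl* was higher by 0.56, all with overlapping intervals. The median of the members was -0.77 beside 0.00.

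Setting the deletions side by side under PBS, *Atf4*-/- minus *Gcn2*-/-, gave 0 called members, against 0.976% of 9015 genes. *Scd1* was 5.09-fold lower in *Atf4*-/- liver (-2.35), *Thrsp* was higher by 0.86 and *Mlxipl* by 0.45, all with overlapping intervals.

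The third question was how ASNase-treated knockouts compared with ASNase-treated WT mice, which served in both comparisons. In *Gcn2*-/- liver, *Me1* fell to 0.193 of WT (-2.37), *Thrsp* to 0.207 (-2.27) and *Elovl6* to 0.341 (-1.54). These 3 of 10 were called, against 4.41% of 9423 eligible genes and 2.59% called lower. The call of *Elovl6* was lost with a pseudocount of 1. *Scd1* differed by -2.24 with overlapping intervals. *Mlxipl* (-1.44), *Acaca* (-1.32) and *Acacb* (-1.06) were lower by more than 1, and *Srebf1* (-0.57), *Fasn* (-0.52) and *Acly* (-0.23) by less. The median of the 10 was -1.38 beside 0.05 for all eligible genes, and all 10 values were lower, against 46.4% of eligible genes. Of 7 eligible hepatocyte markers, 5 were lower in this comparison, with a list median of -0.56 and 0 called. Their summed FPKM was 12459 beside 17600 in WT ASNase, and their part in the result was not tested.

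In *Atf4*-/- liver after ASNase, *Acacb* fell to 0.205 of WT (-2.24) and *Elovl6* to 0.233 (-2.08). These 2 of 10 were called, against 8.25% of 9577 eligible genes and 5.66% called lower. *Scd1* had by far the largest difference (-3.63, 12.4-fold) with intervals of 73.0 to 291 against 0 to 5352, the WT lower bound being 0. *Fasn* (-1.77), *Thrsp* (-1.51) and *Srebf1* (-1.51) were also past the fold limit with overlapping intervals, which makes 6 members against 8.45% of eligible genes. *Me1* (-1.41) and *Acly* (-1.17) were short of it, and the differences of *Mlxipl* (-0.10) and *Acaca* (0.05) were small, with intervals too wide to place either level. The median was -1.51 beside 0.07. Of 7 eligible hepatocyte markers, 4 were lower, with a list median of -0.27, 0 called and a summed FPKM of 14671 beside the same WT sum, and their part in the result was not tested.

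Directly between the ASNase-treated knockouts, *Atf4*-/- minus *Gcn2*-/-, 0 members were called, against 3.19% of 9355 genes. *Scd1* (-1.39), *Fasn* (-1.26), *Acacb* (-1.19), *Acly* (-0.94), *Srebf1* (-0.94) and *Elovl6* (-0.54) had lower values in *Atf4*-/- liver. *Acaca* (1.37), *Mlxipl* (1.35), *Me1* (0.96) and *Thrsp* (0.76) had higher ones. The intervals overlapped for all 10.

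**Figure D3:**
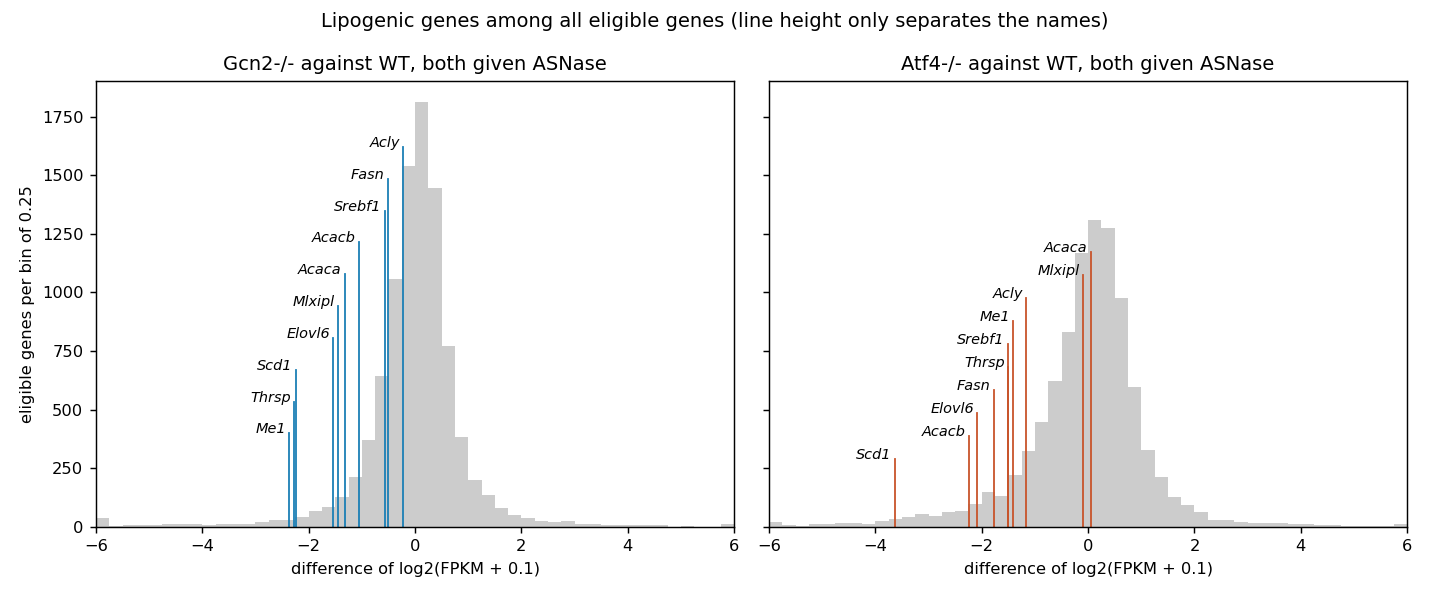
Number of eligible genes (grey bars, bins of 0.25) by difference of log2(FPKM + 0.1) from WT ASNase in *Gcn2*-/- ASNase and *Atf4*-/- ASNase liver, with a line for each lipogenic gene whose height only spaces the names; the outermost bins hold all genes beyond them. The grey bars centre near 0.05 and 0.07, while the lipogenic genes reach down to -2.37 (*Me1*) in *Gcn2*-/- and -3.63 (*Scd1*) in *Atf4*-/- liver.

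Markers of other cell types moved with the strain. The summed FPKM of 8 skeletal muscle markers under PBS and ASNase was 757 and 1100 for WT, 5.95 and 8.97 for *Gcn2*-/- and 58.5 and 149.9 for *Atf4*-/- liver, with *Myh4* listed at 0 in *Gcn2*-/- PBS. Of 6 adipocyte markers the sum was 14.0 and 10.7 in WT, 1.06 and 0.601 in *Gcn2*-/-, and 2.42 and 4.07 in *Atf4*-/- liver, most of it *Cfd*. *Adipoq* was at most 1.96 FPKM in any group, and *Lep* was listed at 0 in both *Gcn2*-/- groups and in *Atf4*-/- ASNase. *Acacb*, which muscle also expresses, had lower values in the knockouts than in WT liver, as had *Me1* and *Elovl6*, though only 1 of 15 pairs was separate for *Acacb*. Between the knockouts, *Acacb* and *Elovl6* were lower in *Atf4*-/- liver under PBS and ASNase, whereas the muscle sums were higher there. *Me1* was lower in *Atf4*-/- liver under PBS and higher after ASNase. In each strain the muscle sum was higher after ASNase and *Acacb* was lower. The part of muscle or fat RNA in these differences was not tested. The summed FPKM was 116 to 245 for 5 Kupffer cell markers and 1.604 to 15.3 for 5 neutrophil markers, and single markers moved in opposite directions. *Marco* was at 3.45 in WT ASNase and was called higher against it in *Gcn2*-/- ASNase (118) and *Atf4*-/- ASNase (67.3), whereas *Clec4f* was at 52.4 in WT ASNase, 15.9 in *Gcn2*-/- ASNase and 30.1 in *Atf4*-/- ASNase. *S100a9* was called lower in *Gcn2*-/- ASNase (0.171) against WT ASNase (3.19) and *Gcn2*-/- PBS (5.63). The part of these cells in the lipogenic values was not tested.

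The neighbouring pathways were then read from 6 gene lists. Of 16 genes for elongation, desaturation and activation of fatty acids, 14 were eligible for the ASNase response in each strain. None was called in WT liver. In *Gcn2*-/- liver, 5 of 14 were called and fell, namely *Fads2*, *Elovl2*, *Elovl5*, *Fads1* and *Acsl5*, where 2.13% of all eligible genes were called lower. In all, 12 of the 14 had lower values, with a list median of -0.36 beside 0.02. In *Atf4*-/- liver, 6 of 14 were called and fell, namely *Elovl3*, *Fads2*, *Elovl2*, *Acsl1*, *Fads1* and *Acsl5*, where 4.63% of all eligible genes were called lower. Again 12 of the 14 had lower values, with a list median of -1.20 beside 0.08. These enzymes build long-chain polyunsaturated fatty acids (*Fads1*, *Fads2*, *Elovl2*, *Elovl5*), make very long saturated and monounsaturated ones (*Elovl3*), or activate fatty acids to acyl-CoA (*Acsl1*, *Acsl5*).

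*Fads2*, the delta-6 desaturase, was at 302, 513 and 181 FPKM under PBS in WT, *Gcn2*-/- and *Atf4*-/- liver. After ASNase it was at 378 (184 to 572) in WT, 67.2 (33.2 to 101) in *Gcn2*-/- and 14.3 (8.05 to 20.6) in *Atf4*-/- liver, and the 3 intervals were separate. *Fads1*, the delta-5 desaturase, was at 188, 274 and 137 under PBS and at 202, 74.0 and 20.2 after ASNase. *Elovl2* was at 218, 353 and 158 under PBS and at 208, 61.3 and 20.3 after ASNase. For these 3 enzymes the ASNase value in *Atf4*-/- liver was below that in *Gcn2*-/- liver with a call, at -2.22, -1.87 and -1.59. They were 3 of 14 eligible genes of the list, where 3.19% of all 9355 eligible genes were called. *Elovl3* differed at baseline, where it was at 54.0 FPKM in WT, 2.84 in *Gcn2*-/- and 32.7 in *Atf4*-/- liver, the *Gcn2*-/- value being called against both. After ASNase it was at 40.7, 0.111 and 0.410. *Elovl3* is known for a level in mouse liver that depends on sex and time of day. Males were 1 of 3 mice in WT PBS and *Gcn2*-/- PBS and 2 of 3 in *Atf4*-/- PBS, and their part in the result was not tested.

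In the list of acetyl-CoA and NADPH supply (14 genes), *Idh1*, the cytosolic NADPH-forming isocitrate dehydrogenase, was the 1 gene called for an ASNase response, 1 of 12 eligible in *Atf4*-/- liver, where 7.37% of all eligible genes were called. It fell in *Atf4*-/- liver from 178 to 38.2 FPKM (-2.22), and the list median there was -0.52 beside 0.08. Against WT ASNase, *Acss2*, the acetyl-CoA synthetase, was also called in *Atf4*-/- liver, at 7.09 FPKM beside 85.5 (-3.57), which with *Idh1* makes 2 of 13 called lower, where 5.66% of all eligible genes were. In the list of SREBP processing and lipogenic transcription (16 genes), *Insig1*, the ER protein that retains SREBP and is itself an SREBP target, fell in *Atf4*-/- liver from 128 to 20.4 (-2.64). Its value was also lower after ASNase, without a call, in WT (176 to 102, -0.79) and *Gcn2*-/- liver (185 to 102, -0.85). It was 1 of 15 eligible genes called in *Atf4*-/- liver, close to the 7.37% of all eligible genes, and the list median there was -0.16. *Irs2*, an insulin receptor substrate, rose in *Atf4*-/- ASNase liver against WT ASNase, at 16.0 FPKM beside 2.67 (2.55).

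The remaining lists gave no call for an ASNase response in any strain. They were glycerolipid assembly (10 of 11 genes eligible, medians 0.20, -0.23 and -0.26 in WT, *Gcn2*-/- and *Atf4*-/- liver), AMPK and malonyl-CoA removal (6 of 7, medians 0.03, -0.12 and -0.08) and mitochondrial fatty acid synthesis (6 of 8, medians -0.13, -0.38 and -0.10). Of these, *Lpin1*, a phosphatidate phosphatase, was called between *Atf4*-/- ASNase and WT ASNase, at 19.2 beside 67.9 FPKM (-1.82). This was 1 of 10 eligible genes of its list, where 8.25% of all eligible genes were called.

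**Figure D4:**
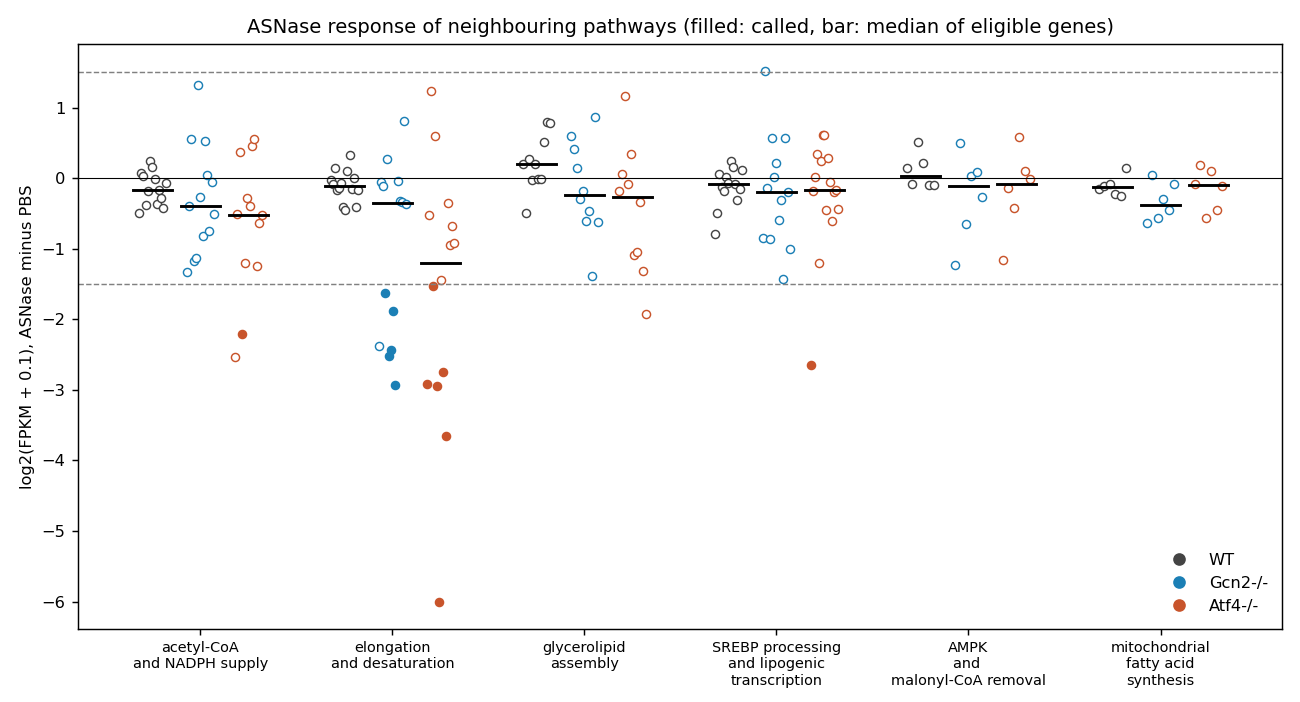
Difference of log2(FPKM + 0.1), ASNase minus PBS, of each eligible gene in the 6 lists for WT, *Gcn2*-/- and *Atf4*-/- liver, with filled points for called genes, black bars for medians and dashed lines at 1.5 in either direction. Filled points gather in elongation and desaturation, 5 in *Gcn2*-/- and 6 in *Atf4*-/- liver, and the lowest is *Elovl3* in *Atf4*-/- liver at -6.01.

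Likeness between levels was described by Pearson's r of log2(FPKM + 0.1) over the 6 groups, which share libraries and scaling within a group. *Acacb* was left out because it was not over 3 FPKM in *Atf4*-/- ASNase. Among the other 9 members, *Fasn* and *Acly* were the most alike (r = 0.99), followed by *Acly* and *Srebf1* (0.95), *Scd1* and *Elovl6* (0.91) and *Fasn* and *Srebf1* (0.91). *Mlxipl* was most like *Thrsp* and *Acaca* (both 0.77) and *Acaca* was least like *Acly* (-0.16). These r values leave the intervals out, whose lower bound was 0 in 6 groups for *Acaca*, 4 for *Fasn* and 3 for *Scd1*. Since no order of the *Acaca* groups can be read, its r values carry little weight. Among 7662 genes, the closest to *Fasn* were *Ndufv3*, *Ndufs7*, *Ndufs8*, *Tmem147* and *Gins4* (r 0.99 each). The closest to *Scd1* were *Ass1* (0.997), *Snora28*, *Cyb5r3*, *Ndufb10* and *mt-Co2* (0.98 to 0.99), and the closest to *Srebf1* were *Kynu*, *Adra1b*, *St13*, *Slc46a1* and *Camk1* (0.997 to 0.998). With 6 points, high values are common, as 585 genes had r over 0.9 with *Fasn* (7.64%), 276 with *Scd1* (3.60%) and 842 with *Srebf1* (10.99%).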

How the data were processed

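Liver poly-A RNA of 18 mice was sequenced as 100 bp single-end TruSeq v2 libraries. Alignment by the authors was to mm10 with TopHat, and expression was estimated with Cuffdiff, both also named in the submitters' processing notes. The deposited table holds FPKM per gene and group, pooled over 3 libraries, with interval bounds and a status. Each column was assigned to its group by name, with 0 columns unassigned. Groups were taken from the sample titles. Differences of log2(FPKM + 0.1) were computed here with Python 3.11.15, pandas 2.3.3 and NumPy 2.4.6 and drawn with Matplotlib 3.10.9. The limits of 3 FPKM and 1.5 on the log2 scale follow the study's methods, and non-overlap of the intervals replaces its q value. Genes were placed with the GENCODE annotation of GRCm38. The scripts were tested on simulated data.

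The genes and lists were chosen with earlier results of these data known. Named were all 10 members, the genes of each list that were called in an ASNase comparison within a strain (up to 3 in each direction with the largest change), the 5 genes most like *Fasn*, *Scd1* and *Srebf1*, the deleted genes, and list genes on which a result turns. *Marco*, *Clec4f*, *S100a9*, *Scd2*, *Acss2*, *Irs2*, *Lpin1*, *Elovl5*, *Acsl5* and the further list genes named for comparisons between strains were chosen after their values were seen. Alternatives were other pseudocounts, FPKM and fold limits, interval rules and scalings, and other forms of the combined error, which were added after the data were seen. A result of 1 further list is not reported here, and that list is not drawn.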

Additional observations from a re-analysis of the deposited data

Results flagged for a closer look

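The ASNase response of *Me1* stood apart between strains by more than the combined error of the 4 group values, narrowly so for *Gcn2*-/- against WT liver. The response was -1.67 in *Gcn2*-/- and -0.22 in WT liver, a difference of -1.45, and it was -0.12 in *Atf4*-/- liver, a difference of 1.55 from *Gcn2*-/- liver. *Me1* was already at 36.2 FPKM in *Atf4*-/- PBS, beside 54.7 in *Gcn2*-/- PBS and 103 in WT PBS. Without a value per library, no p-value could be given to these differences, which were not tested beyond the comparison with the intervals.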

How the results depend on the processing

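Under other pseudocounts and scalings, no single difference of a member moved by more than 0.30 on the log2 scale. Of 90 single differences, 3 changed sign, each only when every group was scaled to a common sum without its 10 highest genes: *Mlxipl* between *Gcn2*-/- PBS and WT PBS (0.11 as deposited), *Srebf1* between *Atf4*-/- PBS and WT PBS (-0.03) and *Acaca* between *Atf4*-/- ASNase and WT ASNase (0.05). That scaling shifted single groups by -0.14 to 0.09 on the log2 scale. Counts of called members moved as follows. Without the condition on the intervals they were 2 for the *Gcn2*-/- response and 3 for the *Atf4*-/- response, where 6.58 and 12.2% of eligible genes passed. Under the same rule they were 2 for *Atf4*-/- PBS against WT PBS (1.99% of eligible genes) and 1 for *Atf4*-/- PBS against *Gcn2*-/- PBS (1.89%). For *Atf4*-/- ASNase against WT ASNase they were 6 (13.3%). For the other settings below, no share over all eligible genes was taken. With the common sum the counts were 0 for the *Gcn2*-/- response, 0 for *Atf4*-/- PBS against WT PBS and 4 for *Atf4*-/- ASNase against WT ASNase, where *Me1* and *Thrsp* joined *Acacb* and *Elovl6*. A fold limit of 1 gave 2 for the *Gcn2*-/- response (*Me1* and *Thrsp*), a combined interval gave 1 for the *Atf4*-/- response (*Thrsp*) and 3 for *Atf4*-/- ASNase against WT ASNase (*Thrsp* joined), and a pseudocount of 1 gave 0 for *Atf4*-/- PBS against WT PBS. The cause was not tested. For the difference of the responses between strains, errors were also taken as log2 distances to the upper bounds or as the mean of the log2 distances to both bounds, each chosen after seeing the data. The former gave 4 members for *Gcn2*-/- against WT liver, 2 for *Atf4*-/- against WT and 1 between the knockouts (8.89, 14.0 and 8.19% of all genes). This stood beside 1, 0 and 1 (5.54, 9.08 and 5.14%), and the latter gave 1, 0 and 1 (4.34, 7.06 and 3.78%). Between *Gcn2*-/- ASNase and WT ASNase, where 3 members were called, a pseudocount of 1 left 2 (the call of *Elovl6* was lost). Dropping the condition on the intervals gave 4 there, where 7.67% of eligible genes passed. No paired analysis was possible because the table holds 1 value per group, and for the same reason no library could be left out. Precision was limited by the intervals, widest for *Acaca*.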
